A study of Homo sapiens with 24 samples.

Results

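SW480 cells, a human colorectal adenocarcinoma line, were treated with RepSox, a small molecule that inhibits the kinase of the type I TGF-beta receptor ALK5 (TGFBR1), and compared with cells kept in the solvent DMSO. The comparison took 8 of the 24 RNA-seq libraries of the series, chosen by line and treatment label, 4 with RepSox and 4 with DMSO. The RepSox libraries came from SW480 cells carrying a Tet2CD lentivirus or an empty vector and kept in 1 µM RepSox for 24 h, and the DMSO libraries came from the same 2 kinds of SW480 cells kept in DMSO for 24 h. Tet2CD denotes the catalytic domain of TET2, a dioxygenase that oxidises 5-methylcytosine. Its promoter, and whether the lines were clones, are not given in the sources used here. All cells, controls included, had been infected and selected with 5 µg/ml puromycin. Each combination of construct and treatment had 2 libraries, called replicate 1 and replicate 2 only as names. Nothing in the sources used here says that they came from separate cultures, so that p-values measure only how far libraries of a group differ, a spread that may be technical. The remaining 16 libraries came from the same cells with TGFB1 and from SW620, a line from a lymph node metastasis of the same patient, under the same 3 treatments. The study used TGF-beta and RepSox to push cells towards or away from epithelial-mesenchymal transition (EMT). It reports that RepSox induced the reverse transition in SW480, read from an RNA-seq score and from cell migration. That score was not computed here. For SW480 the study further reports that TET2 moved to the cytosol with RepSox, with less TET2-dependent demethylation. It also reports weaker activation of RORA and SPARC and faster growth. Of these, only transcript levels can be read here. The question here is which transcripts changed when the receptor kinase was inhibited without added ligand.

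TGF-beta ligands bind a type II receptor (TGFBR2), which phosphorylates the type I receptor. The activated type I kinase phosphorylates SMAD2 and SMAD3, which join SMAD4, enter the nucleus and bind short DNA motifs beside other factors. Targets include the inhibitors SMAD7, SKIL and PMEPA1, which dampen the pathway, and matrix and adhesion genes such as TGFBI. In colorectal cancer the pathway is often interrupted at TGFBR2 or SMAD4, and ligand can drive EMT in cells that still respond.

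RepSox gave no gene past the threshold in SW480. With edgeR's quasi-likelihood test, 0 of 15302 genes (0%) had an adjusted p below 0.05 for RepSox against DMSO averaged over the constructs, and the smallest adjusted p was 1. At an unadjusted p below 0.05 stood 433 genes (2.83%), and DESeq2 called 1 gene, SYK. In vector cells alone the counts were 0 called (0%), 242 (1.58%) at the unadjusted threshold and 1 by DESeq2, again SYK. The Tet2CD cells alone gave 0 called (0%), 494 (3.23%) at the unadjusted threshold and 0 by DESeq2. The difference of the RepSox effect between Tet2CD and vector cells, tested directly, passed for 0 genes (0%), with 294 (1.92%) unadjusted and 0 by DESeq2. Without the filter on low counts edgeR called 38, 31, 68 and 29 genes in these 4 comparisons. Of them 38, 31, 66 and 28 had been tested in the main fit, where they were not called. The count of 0 thus did not hold in that setting. The calls in the average were led by the clone-named FP236383.2 and FP671120.3 and by RGPD5.

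The intervals show how large a change could have been missed if 1 spread per gene held in all 12 groups. The SW480 Tet2CD replicates differed more than most (chi-square per degree of freedom 42.9 with RepSox and 15.5 with DMSO). Intervals that include Tet2CD cells may therefore be too narrow. Some values below lay outside their interval when 1 library was left out, among them TGFBR2, SMAD1 and F3. A 95% interval inside a 2-fold change in either direction was found for 10962 of the 15302 genes (71.6%) in the average of the constructs, and for 9467 of the 10386 genes (91.2%) with a mean of at least 10 CPM (counts scaled to library size) over the 8 libraries. For vector cells alone these shares were 58.8% and 81.1%. For Tet2CD cells alone they were 46.2% and 64.1%. The median log2 fold change of all genes was 0.01, so that values below need no shift to be read against the rest.

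In vector SW480 cells, libraries of the same treatment differed about as much as libraries of different treatments. The standard deviation over genes of the log2 CPM difference between a RepSox and a DMSO library of vector SW480 cells ranged from 0.433 to 0.542 over the 4 pairs. The 2 RepSox replicates differed by 0.541 and the 2 DMSO replicates by 0.470 on the same scale. In Tet2CD SW480 cells the pairs ranged from 0.445 to 1.18, and the replicates differed by 1.13 (RepSox) and 0.697 (DMSO). In SW620 vector cells the 4 RepSox and DMSO pairs stood at 0.571 to 0.609, above the replicate pairs at 0.528 (RepSox) and 0.462 (DMSO), and in SW620 Tet2CD cells at 0.536 to 0.552 against 0.412 and 0.409.

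**Figure D1:**
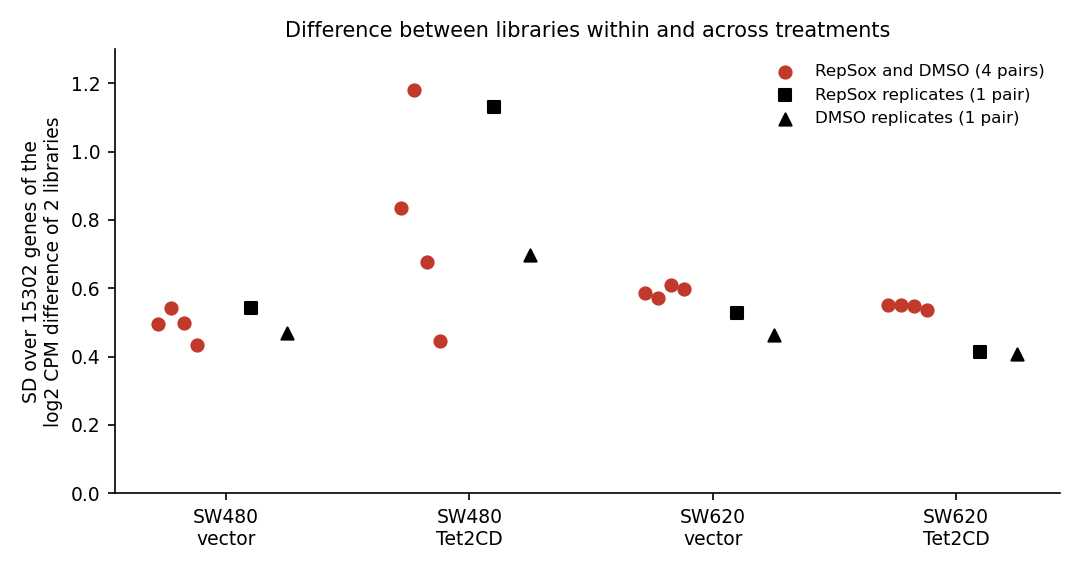
Standard deviation over the tested genes of the log2 CPM difference between 2 libraries (y axis) by line and construct (x axis), for RepSox and DMSO pairs (red circles), RepSox replicates (black squares) and DMSO replicates (black triangles). In vector SW480 cells the red points (0.433 to 0.542) span the replicate values of 0.541 and 0.470, and in SW620 all 8 red points lie above both replicate values of their construct.

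The Tet2CD replicate 1 libraries stood apart and enter every value that includes Tet2CD cells. Through the spread per gene, which all groups share, they also enter the p-values and intervals of vector cells. Ribosomal protein genes took 15.82% of the counts in the RepSox library and 10.63% in the DMSO library of this replicate, and 6.04 to 9.88% in the 21 libraries outside it. Total expected counts of the 8 libraries ran from 2146123, in the same RepSox library, to 4199283. TET2, the gene the construct is named for, stood at 269.5 and 1689.6 CPM in the Tet2CD RepSox libraries and 894 and 1849 CPM in the Tet2CD DMSO libraries, and at 10.3 and 17.7 CPM with RepSox and 14.1 and 21.0 CPM with DMSO in vector cells. The third library of this replicate was treated with TGFB1. With all 3 left out, RepSox against DMSO still gave 0 called genes in SW480 (646 unadjusted, smallest adjusted p 0.132). Leaving out Tet2CD RepSox replicate 2 instead, so that replicate 1 alone stood for RepSox in Tet2CD cells, gave 1656 calls in Tet2CD cells and 11 in the average. The part of this replicate in the values below was not tested beyond leaving it out. Of the colon epithelial markers 8 of 10 reached 1 CPM in both treatments, with a summed level of 10612 to 27371 CPM with RepSox and 9937 to 16309 CPM with DMSO. Fibroblast markers summed to 27.2 to 279.8 CPM with RepSox and 26.9 to 182 CPM with DMSO (LUM at 0 with RepSox and FAP with DMSO), endothelial markers to 6.07 to 28.5 and 4.87 to 20.8 CPM (CDH5 and KDR at 0 in both, TEK with RepSox), and blood cell markers to 11.5 to 30.9 and 13.3 to 22.8 CPM (PTPRC, MS4A1 and CD163 at 0 in both). In bulk RNA fewer cells of a kind and less RNA per cell cannot be told apart.

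The receptors and SMADs through which RepSox acts were expressed, SMAD4 at a few counts only. TGFBR1 (ENSG00000106799, chr9:99104038-99154192 in GENCODE 29), the kinase RepSox inhibits, had 79.5 and 71.0 CPM in vector and 28.5 and 63.3 CPM in Tet2CD cells with RepSox, against 72.8 and 66.3 CPM in vector and 38.0 and 65.1 CPM in Tet2CD cells with DMSO. Its log2 fold change was -0.01 (95% interval -0.52 to 0.49), and the treatments overlapped. In vector cells alone it was 0.11. TGFBR2 differed by -0.21 (95% interval -0.87 to 0.44) and ACVR1B, the activin type I receptor ALK4, by -0.22 (95% interval -0.70 to 0.27). SMAD2 stood at 30.9 to 55.8 CPM with RepSox against 47.9 to 52.2 CPM with DMSO, a difference of -0.09 (95% interval -0.44 to 0.26). SMAD3 stood at 51.0 to 89.6 CPM with RepSox against 64.7 to 85.9 CPM with DMSO. It differed by -0.15 (95% interval -0.49 to 0.18), and the difference was -0.31 (95% interval -0.79 to 0.17) in vector cells alone. SMAD4, the partner the receptor SMADs share, held 1.21 to 1.86 CPM with RepSox and 0.392 to 1.76 CPM with DMSO. These were 1 to 8 counts per library, and the gene did not pass the filter on low counts. Of the 13 TGF-beta and BMP receptors 10 were tested and of the 8 SMADs 6, with 0 called in either list and medians of -0.11 and -0.08. The largest differences in these lists were ACVR2A, an activin type II receptor, at 0.44, the co-receptor TGFBR3 at -0.34, and SMAD1, a SMAD of the BMP branch, at 0.29 (95% interval -0.61 to 1.20). Single libraries decided some of these values. Without Tet2CD RepSox replicate 2 SMAD1 was at -1.47, TGFBR3 at -0.98 and TGFBR2 at -1.29. Without Tet2CD DMSO replicate 2 SMAD1 was at 0.82 and TGFBR3 at 0.08, and without Tet2CD RepSox replicate 1 TGFBR2 was at 0.12.

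Feedback inhibitors, the direct readout of SMAD signalling, gave 0 calls. PMEPA1 (ENSG00000124225, chr20:57648392-57711536 in GENCODE 29), which sequesters receptor SMADs, had 79.8 and 79.2 CPM in vector and 110.2 and 119 CPM in Tet2CD cells with RepSox, against 89.9 and 81.9 CPM in vector and 115 and 122 CPM in Tet2CD cells with DMSO. Both vector RepSox libraries lay just below both vector DMSO libraries, as for 13.3% of all genes (15.5% lay above), and the Tet2CD libraries overlapped. The log2 fold change was -0.08 (95% interval -0.30 to 0.14), the narrowest interval of the 23 genes plotted by fold change. SMAD7, the inhibitory SMAD that blocks the type I receptor, stood at 9.69 to 31.8 CPM with RepSox against 20.4 to 33.8 CPM with DMSO and differed by -0.03 (95% interval -0.60 to 0.55). For SKIL, a corepressor of SMAD targets, the range was 12.1 to 36.4 CPM with RepSox against 18 to 34.7 CPM with DMSO. The SKIL difference was -0.15 (95% interval -0.69 to 0.38). Without Tet2CD RepSox replicate 1 SMAD7 was at 0.24, SKIL at 0.02 and PMEPA1 at -0.06. Without Tet2CD RepSox replicate 2 they were at -0.63, -0.5 and -0.13, that of SMAD7 outside its interval. All 14 feedback inhibitors and corepressors were tested, 0 were called, and their median was -0.07. An interval inside a 2-fold change was found for 13, beside 91.2% of genes with at least 10 CPM. The ends of this list were SMURF2, a ubiquitin ligase for receptor and SMADs, at -0.24 (-0.65 without Tet2CD RepSox replicate 2 and -0.01 without replicate 1), and the decoy receptor BAMBI at 0.22.

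Promoter sequence is shown for PMEPA1 and SMAD7, the 2 feedback genes on which the pathway readout turns. The 250 bases before a RefSeq start (GRCh38.p14) were searched on both strands for CAGAC, the SMAD box, for the SMAD palindrome GTCTAGAC, for the AP-1 site TGACTCA, and for the CArG box. CAGAC was present in 38% of all 35116 windows of this length, GTCTAGAC in 0.182%, TGACTCA in 4.20% and the CArG box in 1.16%. The windows below are the SMAD7 start with 2 matches to CAGAC, of 3 starts, and the downstream one of the 2 PMEPA1 starts with 1 match, of 4 starts. Capitals mark CAGAC, and neither window held the other motifs.
SMAD7, chr18:48950966-48951215, minus strand: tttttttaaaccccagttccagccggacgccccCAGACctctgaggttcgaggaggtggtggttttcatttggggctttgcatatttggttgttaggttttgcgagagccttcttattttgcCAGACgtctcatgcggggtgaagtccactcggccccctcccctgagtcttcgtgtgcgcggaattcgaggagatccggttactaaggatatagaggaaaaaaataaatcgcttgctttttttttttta
PMEPA1, chr20:57690687-57690936, minus strand: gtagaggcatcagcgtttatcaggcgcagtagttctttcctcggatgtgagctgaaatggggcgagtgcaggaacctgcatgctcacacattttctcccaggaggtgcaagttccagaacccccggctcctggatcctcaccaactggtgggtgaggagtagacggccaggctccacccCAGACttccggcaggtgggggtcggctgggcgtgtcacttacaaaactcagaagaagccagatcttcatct
The single TGFBI window and the single SKIL window were searched in the same way, with 0 and 1 matches to CAGAC. A match describes letters in this window only.

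TGF-beta effector genes likewise gave 0 calls among 32 tested. TGFBI, a secreted matrix protein named for its induction by TGF-beta, had 282 and 311 CPM in vector and 477 and 706 CPM in Tet2CD cells with RepSox, against 307 and 315 CPM in vector and 671 and 678 CPM in Tet2CD cells with DMSO. It differed by -0.13 (95% interval -0.38 to 0.12). TGM2 (ENSG00000198959, chr20:38127387-38166578 in GENCODE 29), a transglutaminase that crosslinks matrix, was the 1 gene of the 74 tested in the 5 TGF-beta lists at an unadjusted p below 0.05 (background 2.83%). Its libraries held 1413 and 1507 CPM in vector and 455 and 791 CPM in Tet2CD cells with RepSox, against 1674 and 1726 CPM in vector and 832 and 977 CPM in Tet2CD cells with DMSO. Every RepSox library lay below every DMSO library of its construct. The log2 fold change was -0.38 (SE 0.16, unadjusted p 0.0287, adjusted p 1, edgeR), and -0.26 without the Tet2CD replicate 1 libraries. THBS1, thrombospondin 1, which can release latent TGF-beta, was higher without overlap within either construct, with 15.5 and 16.3 CPM in vector and 18.8 and 14.0 CPM in Tet2CD cells with RepSox, against 15.3 and 12.5 CPM in vector and 8.63 and 11.2 CPM in Tet2CD cells with DMSO (log2 fold change 0.44, 95% interval -0.11 to 0.99). SNAI2, an EMT transcription factor, held at most 8 counts in a library, and its value of -0.53 had an interval of -2.05 to 0.99 and was -3.25 without Tet2CD RepSox replicate 2.

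Over the ligands, receptors, SMADs, inhibitors and effectors together, 74 of 84 genes were tested, 60 (81.1%) had an interval inside a 2-fold change against 71.6% of all genes, and the log2 fold changes ran from -0.53 to 0.53 with a median of -0.06. In vector cells alone 0 of the 74 reached an unadjusted p below 0.05 (background 1.58%). Among the ligands and activators, TGFB1 itself had 64.9 and 54.5 CPM in vector and 133 and 77.4 CPM in Tet2CD cells with RepSox, against 75.2 and 69.7 CPM in vector and 101 and 64.6 CPM in Tet2CD cells with DMSO. It was lower without overlap in vector cells (log2 fold change -0.28, 95% interval -0.83 to 0.27) and overlapping in Tet2CD cells. TGFB3 stood at 1.21 to 3.64 CPM with RepSox against 0.392 to 3.07 CPM with DMSO, and LTBP3, which tethers latent TGF-beta to matrix, at 262 to 486 CPM with RepSox against 218 to 332 CPM with DMSO (log2 fold change 0.36, 95% interval -0.06 to 0.79, and 0.11 without Tet2CD RepSox replicate 1).

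**Figure D2:**
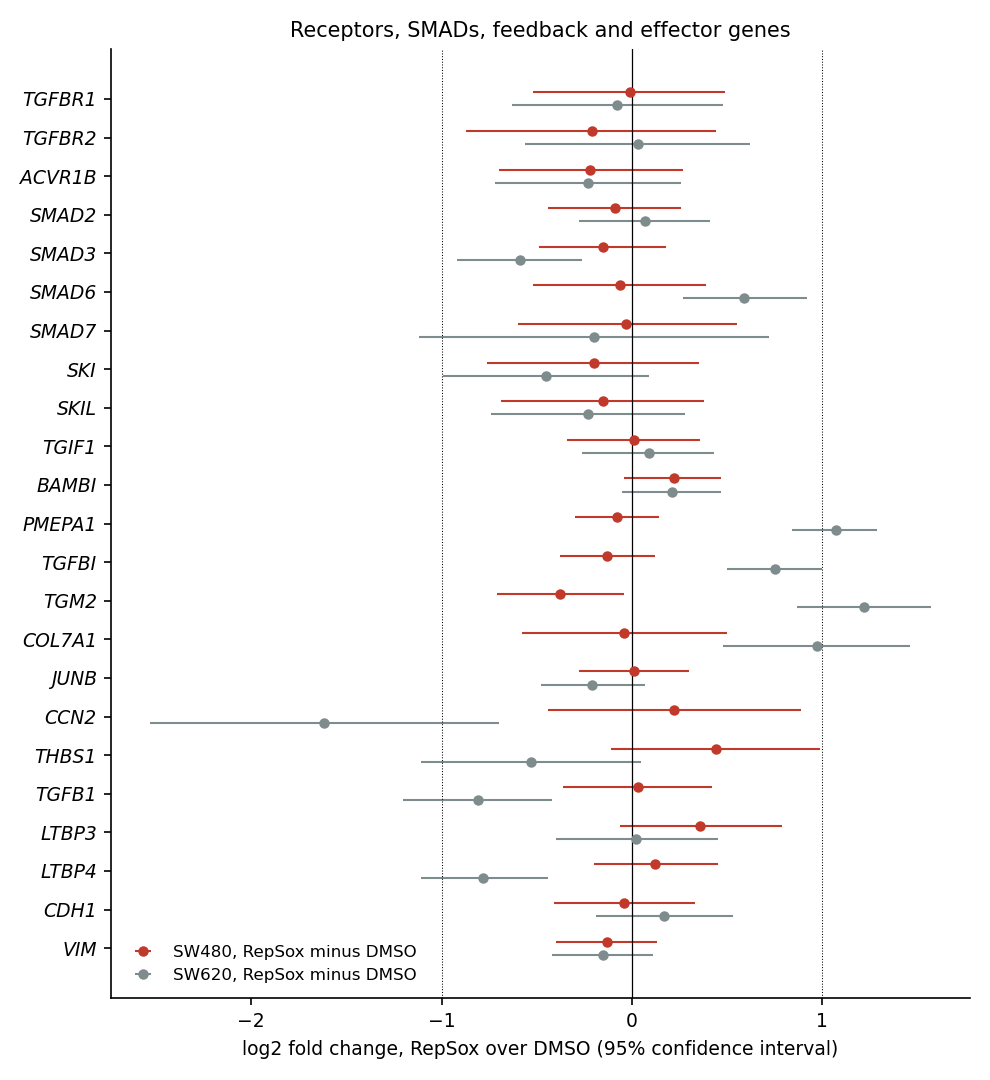
Log2 fold change of RepSox over DMSO (x axis, points with 95% confidence intervals) for 23 pathway, target and EMT genes (y axis) in SW480 (red) and SW620 (grey), each averaged over constructs, with dotted lines at a 2-fold change. All 23 SW480 intervals lie inside the dotted lines, whereas in SW620 the points of PMEPA1 (1.07), TGM2 (1.22) and CCN2 (-1.62) lie beyond them.

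Ligand gave calls in the same pathway lists. TGFB1 at 4 ng/ml for 24 h against the same DMSO libraries gave 160 called genes (1.05%) in SW480, 112 higher and 48 lower, of which 7 higher and 1 lower were among the 74. PMEPA1 was higher with TGFB1 by a log2 fold change of 1.07 (adjusted p 0.000187, edgeR), TGFBI by 0.62 (adjusted p 0.014) and JUNB, an AP-1 subunit, by 0.88 (adjusted p 0.00354), and BAMBI was lower (log2 fold change -0.78, adjusted p 0.00439). With RepSox the same 4 genes stood at -0.08, -0.13, 0.01 and 0.22. Both comparisons share their DMSO libraries, so that no relation between them was computed.

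Epithelial and mesenchymal genes, which serve as markers of EMT, gave 0 calls among 30 and 21 tested members. CDH1, E-cadherin, had 90.4 and 107 CPM in vector and 92.7 and 136 CPM in Tet2CD cells with RepSox, against 93.7 and 114 CPM in vector and 104 and 127 CPM in Tet2CD cells with DMSO. The log2 fold change was -0.04 (95% interval -0.41 to 0.33). VIM, vimentin, the intermediate filament of mesenchymal cells, had 639 and 543 CPM in vector and 662 and 640.2 CPM in Tet2CD cells with RepSox, against 678 and 636 CPM in vector and 802 and 606 CPM in Tet2CD cells with DMSO. It differed by -0.13 (95% interval -0.40 to 0.13). The treatments overlapped for both. Medians were 0.09 for the epithelial and -0.02 for the mesenchymal list, and in vector cells alone 0.08 and -0.12. In vector cells 11 of the 30 epithelial genes were higher and 1 lower without overlap, and of the 21 mesenchymal genes 3 were higher and 6 lower, beside 15.5% and 13.3% of all genes. CDH2, N-cadherin, was at 0 in all 8 libraries. The largest epithelial values were PRSS8, a membrane protease (0.910 and 0.466 CPM in vector and 37.6 and 13.7 CPM in Tet2CD cells with RepSox, against 0 and 0.256 CPM in vector and 18.8 and 9.44 CPM in Tet2CD cells with DMSO), and the keratin KRT18 (log2 fold change 0.48, 95% interval -0.17 to 1.13), which was highest in Tet2CD RepSox replicate 1 and stood at -0.07 without it. The mesenchymal list ended in FOXC2 (0 to 3.03 CPM with RepSox against 0.512 to 3.97 CPM with DMSO) and PRRX1 (0.910 to 3.21 CPM with RepSox against 0.392 to 2.06 CPM with DMSO), both transcription factors at no more than 16 and 11 counts in a library.

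Of the genes followed by the study, CTNNB1, beta-catenin, stood at 571 to 1475 CPM with RepSox against 750.0 to 1268 CPM with DMSO (log2 fold change 0.04, 95% interval -0.33 to 0.40). RORA, a nuclear receptor, was at 22.4 to 47.3 CPM with RepSox against 30.2 to 52.2 CPM with DMSO (log2 fold change -0.19, 95% interval -0.76 to 0.38). SPARC, a matrix glycoprotein, had 3.64 and 1.86 CPM in vector and 48.5 and 62.5 CPM in Tet2CD cells with RepSox, against 1.76 and 0.256 CPM in vector and 65.9 and 67.6 CPM in Tet2CD cells with DMSO. Its level went with the construct. Both RepSox libraries lay above both DMSO libraries in vector cells, at no more than 3.64 CPM, and below them in Tet2CD cells. The average over constructs was 0.59 (95% interval -0.54 to 1.72), or 1.47 and 0.16 without vector DMSO replicate 1 or 2. This positive value does not describe the Tet2CD cells, where SPARC was higher in level. Endogenous and construct reads of TET2 cannot be told apart in Tet2CD cells, and in vector cells the TET2 difference was -0.31 (95% interval -1.76 to 1.13).

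**Figure D3:**
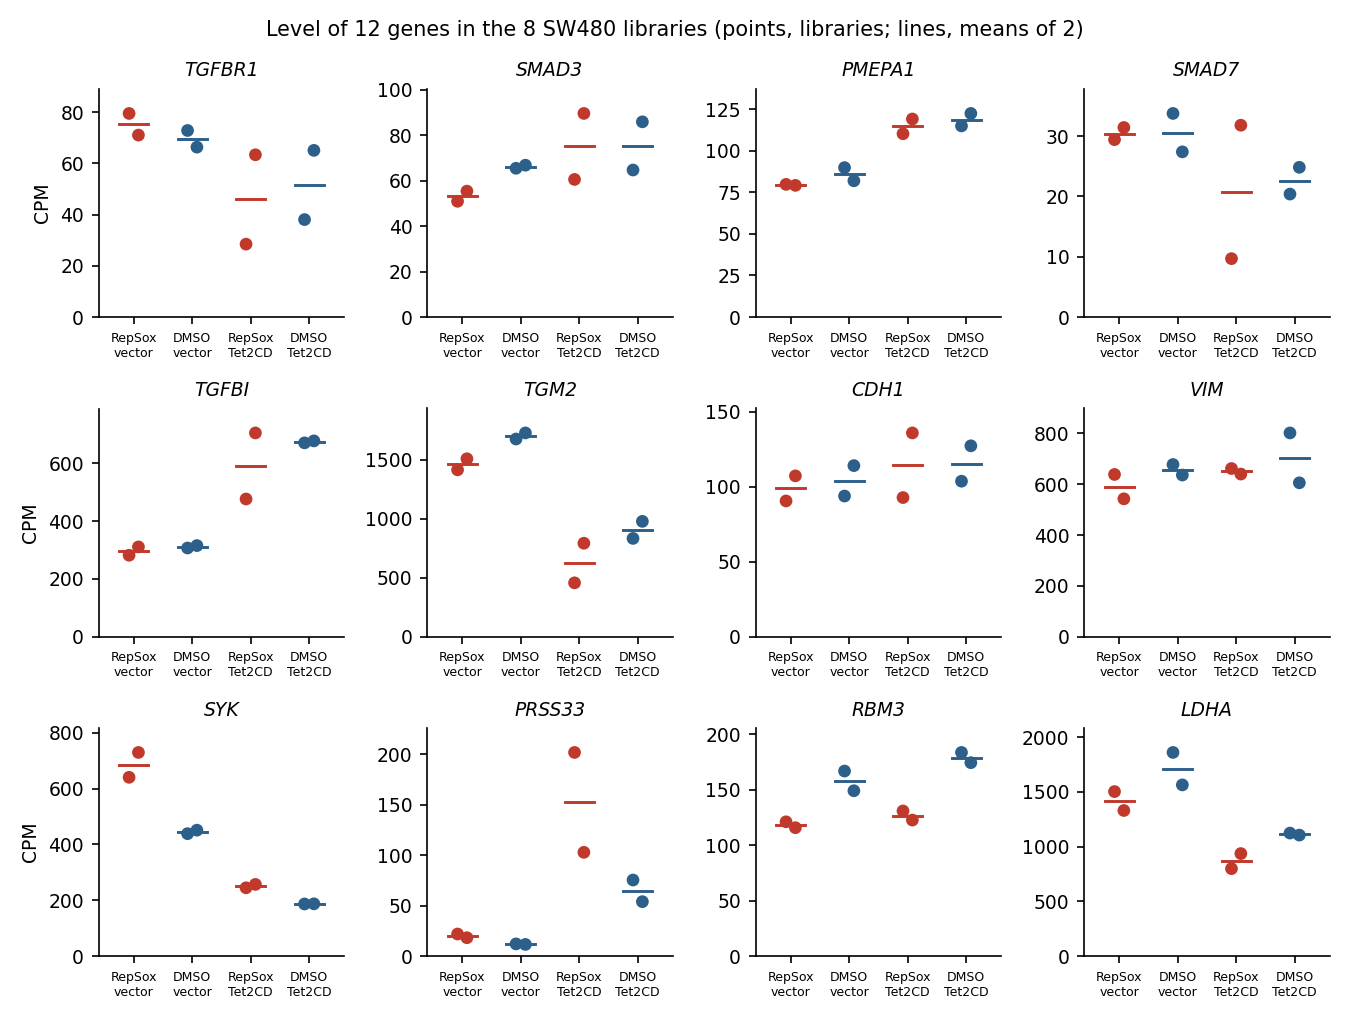
Level in CPM (y axes, from 0) of 12 genes in the 8 SW480 libraries, RepSox in red and DMSO in blue, vector cells left and Tet2CD cells right (points, libraries; lines, means of 2). PMEPA1, SMAD7, TGFBI, CDH1 and VIM overlap between treatments in at least 1 construct, whereas SYK, PRSS33, RBM3 and LDHA do not overlap in either.

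The libraries of both constructs were separated in the same direction for 273 genes higher with RepSox (1.78%) and 217 lower (1.42%). Groups of 2 libraries can be separated by chance, so these shares are by themselves no sign of a change. The genes below were chosen after their values were seen, by smallest unadjusted p among such genes with a plain gene symbol and a mean of at least 8 CPM, and each had an adjusted p of 1 in edgeR. SYK (ENSG00000165025, chr9:90801787-90898549 in GENCODE 29), a tyrosine kinase of immune receptor signalling that epithelial cells also express, came first. It had 641 and 729.9 CPM in vector and 245 and 257 CPM in Tet2CD cells with RepSox, against 439 and 451 CPM in vector and 187 and 187 CPM in Tet2CD cells with DMSO. The log2 fold change was 0.52 (SE 0.10, unadjusted p 6.65e-05), and it was 0.62 in vector and 0.42 in Tet2CD cells. In DESeq2 it was the only call, with an adjusted p of 2.01e-07. The difference of its effect from that in SW620 (0.20) was not called (0.33, adjusted p 0.373, edgeR).

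PRSS33, a serine protease, had 21.8 and 18.2 CPM in vector and 202 and 103 CPM in Tet2CD cells with RepSox, against 12 and 11.5 CPM in vector and 75.3 and 53.9 CPM in Tet2CD cells with DMSO (log2 fold change 0.99, 95% interval 0.51 to 1.48). It passed the threshold without the low count filter (adjusted p 0.0154, edgeR). Its log2 fold change was 0.72 without Tet2CD RepSox replicate 1, where it was highest, and 1.19 without replicate 2. SEMA3F, a secreted semaphorin, stood at 12.1 to 21.8 CPM with RepSox against 8.45 to 10.7 CPM with DMSO (log2 fold change 0.69, 95% interval 0.35 to 1.03), and VILL, a relative of the actin-binding protein villin, at 8.15 to 24.8 CPM with RepSox against 5.12 to 9.81 CPM with DMSO (log2 fold change 0.98, 95% interval 0.45 to 1.5), separated within each construct. The remaining genes higher within both constructs were HID1 (0.50), MAPK8IP1, a JNK scaffold (0.74), the amino acid transporter SLC43A1 (0.51), SMCO2 (1.10), the transcription cofactor SUPT3H (0.63) and RGPD5 (68.9 and 46.1 CPM in vector and 4.24 and 30.7 CPM in Tet2CD cells with RepSox, against 2.64 and 24.1 CPM in vector and 0 and 2.24 CPM in Tet2CD cells with DMSO). RGPD5 belongs to a family of near-identical copies, and its reads may be split among them.

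Lower within both constructs were 2 of these 12 genes. DCLK1, a microtubule-associated kinase, had 25.8 and 27.0 CPM in vector and 6.66 and 6.42 CPM in Tet2CD cells with RepSox, against 44.0 and 51.5 CPM in vector and 10.6 and 13.9 CPM in Tet2CD cells with DMSO. It differed by -0.89 (95% interval -1.40 to -0.38). RBM3, an RNA-binding protein induced by cold, had 121 and 116 CPM in vector and 131 and 123 CPM in Tet2CD cells with RepSox, against 167 and 149 CPM in vector and 184 and 174 CPM in Tet2CD cells with DMSO. It differed by -0.46 (95% interval -0.73 to -0.18). Without the Tet2CD replicate 1 libraries their values were -0.98 and -0.46.

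Across 26 gene lists, 511 of 561 genes were tested, 0 were called and 22 had an unadjusted p below 0.05, beside 2.83% of all genes. The medians of 23 lists lay within 0.15 of 0. Ribosomal protein genes had the largest median, 0.36, with 30 of 30 members above 0 and 0 called. This median was 0.08 in vector cells, 0.57 in Tet2CD cells and 0.12 without the Tet2CD replicate 1 libraries. RPLP2 had 616 and 451 CPM in vector and 3351 and 620.0 CPM in Tet2CD cells with RepSox, against 505 and 441 CPM in vector and 1334 and 550.3 CPM in Tet2CD cells with DMSO. RPS19 was likewise highest in Tet2CD RepSox replicate 1, at 811 to 4544 CPM with RepSox against 775 to 1926 CPM with DMSO.

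**Figure D4:**
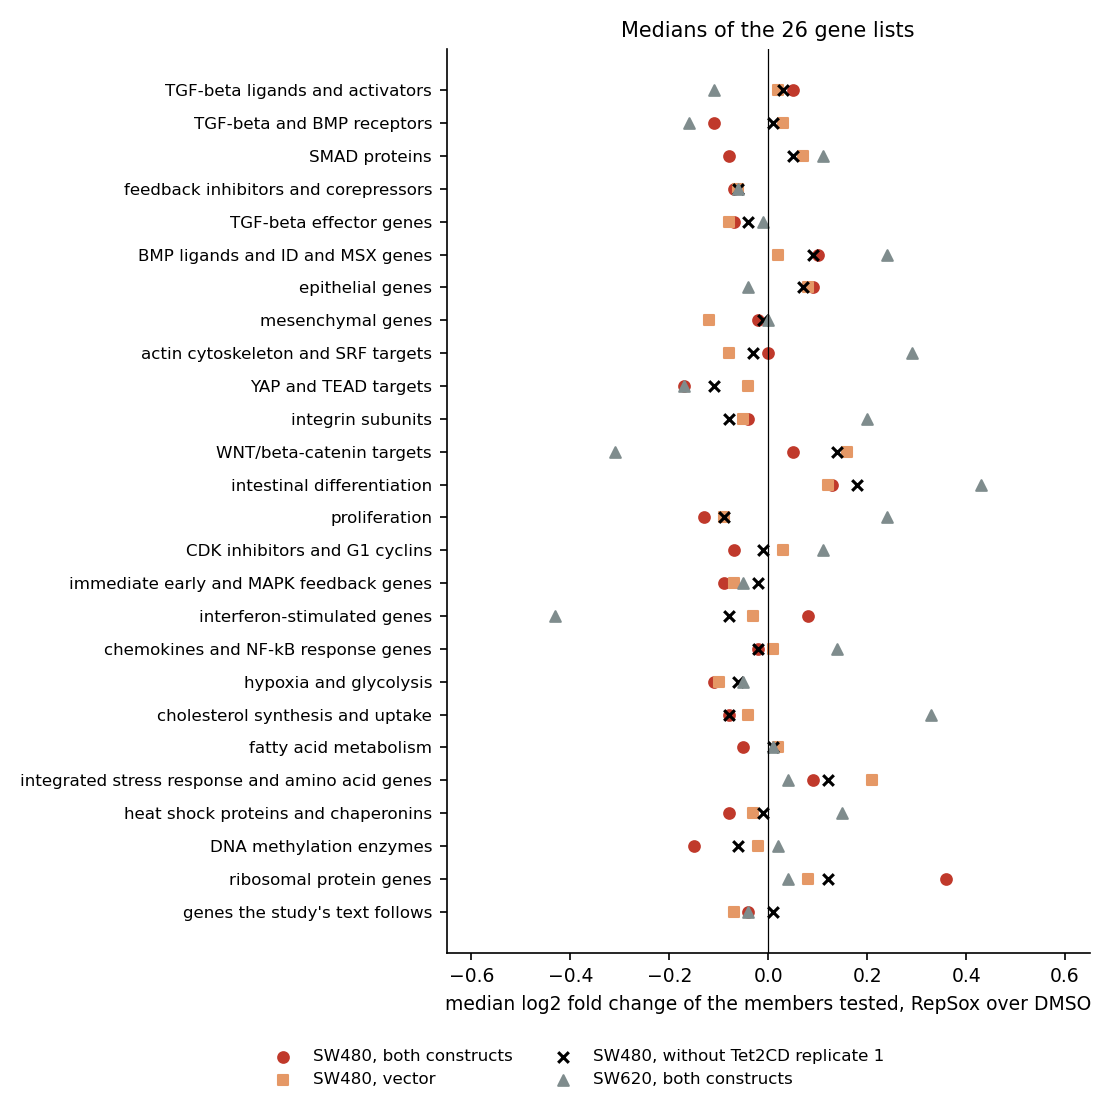
Median log2 fold change of RepSox over DMSO (x axis) of the tested members of 26 gene lists (y axis), for SW480 averaged over constructs (red circles), SW480 vector cells (orange squares), SW480 without the Tet2CD replicate 1 libraries (black crosses) and SW620 (grey triangles). The SW480 medians lie near 0 except that of the ribosomal protein genes (0.36), which is 0.12 without those libraries.

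Growth genes gave 0 calls. Of 30 proliferation genes 23 were below 0, beside 51.7% of all genes above 0, and the median was -0.13. An interval inside a 2-fold change was found for 29, CCNE2 apart, beside 91.2% of genes with at least 10 CPM. AURKA, RRM1, RRM2 and TPX2 were lower without overlap in both constructs, 4 of 30 beside 1.42% of all genes. In vector cells 1 was higher and 9 were lower without overlap, beside 15.5% and 13.3% of all genes, and the median was -0.09. RRM2, the small subunit of ribonucleotide reductase, had 288 and 271 CPM in vector and 231 and 236 CPM in Tet2CD cells with RepSox, against 341 and 321 CPM in vector and 304 and 321 CPM in Tet2CD cells with DMSO. It differed by -0.33 (95% interval -0.59 to -0.07). AURKA, a mitotic kinase, differed by -0.28 (95% interval -0.56 to 0), RRM1 by -0.24 (95% interval -0.46 to -0.02) and TPX2, a spindle assembly factor, by -0.19 (95% interval -0.43 to 0.04). The cyclins CCNE1 (-0.41) and CCNE2 (-0.56) ended this list, CCNE2 with an interval of -1.58 to 0.46 and a value of 0.12 without Tet2CD DMSO replicate 2. The CDK inhibitors and G1 cyclins had 0 calls of 20 and a median of -0.07.

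Among 28 hypoxia and glycolysis genes 0 were called, with a median of -0.11 (-0.10 in vector cells). In vector cells 1 was higher and 11 were lower without overlap, beside 15.5% and 13.3% of all genes. ANKRD37, a hypoxia-inducible gene, was higher without overlap, with 77.4 and 58.2 CPM in vector and 88.4 and 64.2 CPM in Tet2CD cells with RepSox, against 47.3 and 47.4 CPM in vector and 60.8 and 40.7 CPM in Tet2CD cells with DMSO (log2 fold change 0.55, 95% interval 0.20 to 0.90). LDHA, lactate dehydrogenase A, was lower without overlap, with 1503 and 1330.0 CPM in vector and 799 and 936 CPM in Tet2CD cells with RepSox, against 1861 and 1564 CPM in vector and 1124 and 1105 CPM in Tet2CD cells with DMSO (log2 fold change -0.32, 95% interval -0.53 to -0.11). PFKP, the platelet form of phosphofructokinase, differed by -0.24 (95% interval -0.50 to 0.02). PDK1, which inhibits pyruvate dehydrogenase, stood at 13.9 to 26.7 CPM with RepSox against 16.1 to 38.5 CPM with DMSO (log2 fold change -0.46, 95% interval -0.87 to -0.04). In the fatty acid list (0 of 29) PPARG, a nuclear receptor of lipid metabolism, had 20.9 and 16.5 CPM in vector and 5.45 and 4.96 CPM in Tet2CD cells with RepSox, against 16.7 and 14.3 CPM in vector and 1.57 and 1.99 CPM in Tet2CD cells with DMSO. The difference of 0.88 (95% interval 0.46 to 1.29) was 1.49 in Tet2CD and 0.27 in vector cells (difference of the effects not called, adjusted p 1, edgeR). ACADS, an acyl-CoA dehydrogenase, stood at 0.51, and at 0.13 without Tet2CD RepSox replicate 1. Cholesterol synthesis (0 of 24, median -0.08) ended in HMGCS1 (-0.48) and SQLE (-0.37), both lowest in Tet2CD RepSox replicate 1. They stood at -0.19 and -0.03 without that library, and at -1.09 and -1.23 without Tet2CD RepSox replicate 2.

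The signalling lists gave 0 calls too. YAP and TEAD targets had a median of -0.17 (-0.04 in vector cells). ANKRD1 was lower without overlap (119.8 and 118 CPM in vector and 83.0 and 119.7 CPM in Tet2CD cells with RepSox, against 142 and 145 CPM in vector and 139.7 and 159 CPM in Tet2CD cells with DMSO), and F3, tissue factor, stood at -0.47 (95% interval -1.22 to 0.27), at -1.46 without Tet2CD RepSox replicate 2 and at -0.17 without replicate 1. Immediate early and MAPK feedback genes had a median of -0.09, with JUN at -0.31 and DUSP4, an ERK phosphatase, at -0.30. The WNT target list had a median of 0.05, with ASCL2 at 86.4 to 591 CPM with RepSox against 78.6 to 308 CPM with DMSO (log2 fold change 0.50, 95% interval -0.31 to 1.3) and LGR5 at no more than 4 counts in a library. Actin and SRF targets had a median of 0 and ended in MYL9 (0.58) and CNN3 (-0.35). Integrin subunits had a median of -0.04, with ITGA10 at -0.44 and ITGB7 at no more than 3 counts. BMP ligands and ID and MSX genes had a median of 0.10, with BMP8B at 0.23 and the BMP antagonist NOG at no more than 7 counts. Without Tet2CD RepSox replicate 1 JUN was at -0.08, ASCL2 at -0.01 and MYL9 at 0. Without replicate 2 JUN was at -0.75 and BMP8B at -0.17, and CNN3 was at -0.90 and 0.02 without vector RepSox replicate 1 or 2.

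In the remaining lists, each with 0 calls, interferon-stimulated genes had a median of 0.08 (IFIT1 -0.59, IFI27 0.54), chemokines and NF-kB response genes -0.02 (CXCL3 and CXCL8 at no more than 3 and 2 counts) and intestinal differentiation genes 0.13 (CEACAM5 and MUC2 at no more than 1 and 2 counts). Integrated stress response genes had a median of 0.09 (0.21 in vector cells), and in vector cells 13 of 26 were higher and 0 lower without overlap, beside 15.5% and 13.3% of all genes. Of them NUPR1 was at 0.86 and PHGDH, the entry enzyme of serine synthesis, at 108 to 235 CPM with RepSox against 84.2 to 139 CPM with DMSO (log2 fold change 0.52, 95% interval 0.02 to 1.02). Heat shock proteins and chaperonins had -0.08, with HSPB1 at 0.31 and BAG3 at -0.27. DNA methylation enzymes had -0.15 (-0.02 in vector cells), with TET1 at no more than 9 counts. Without Tet2CD RepSox replicate 1 IFI27 was at 0.07, NUPR1 at 0.33, PHGDH at 0.19, HSPB1 at -0.36 and BAG3 at -0.06. Without vector DMSO replicate 1 NUPR1 was at 1.99, and IFIT1 was at -1.13 and -0.25 without vector RepSox replicate 1 or 2.

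The most like experiment, RepSox against DMSO in SW620, gave 717 called genes of 15302 (4.69%), 307 higher and 410 lower, in the same fit. An interval inside a 2-fold change was found for 71.6% of all genes in SW480 and for 66.9% in SW620. The median standard error of a log2 fold change was 0.245 in SW480 and 0.239 in SW620. The fit takes 1 spread per gene over all 24 libraries, so these values do not compare how well the lines were measured. Chi-square per degree of freedom between Tet2CD replicates was 42.9 (RepSox) and 15.5 (DMSO) in SW480, and 1.9 and 1.63 in SW620. Between vector replicates it was 6.25 and 3.39 in SW480, and 5.01 and 4.73 in SW620. Tested directly, the RepSox effect differed between SW480 and SW620 for 157 genes (1.03%), 107 with a higher and 50 with a lower effect in SW480. Without the 3 Tet2CD replicate 1 libraries this count was 577, and leaving out single libraries gave 63 (SW480 vector DMSO replicate 1, SW620 Tet2CD RepSox replicate 1 or SW620 vector DMSO replicate 1) to 776 (SW480 Tet2CD RepSox replicate 2). DESeq2 called 309, 149 of them among the 157. The 307 genes higher with RepSox in SW620 had a median log2 fold change of 0 in SW480 and 0.83 in SW620. In SW480 50.2% of them were above 0, beside 51.7% of all genes. The 410 lower genes had a median of 0.05 in SW480, where 60.2% were above 0, and of -0.92 in SW620. An interval inside a 2-fold change in SW480 was found for 79.2% of the higher and 81.0% of the lower genes.

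PMEPA1, TGFBI and TGM2 were the 3 genes of the 5 TGF-beta lists whose effect differed between the lines. All 3 were higher with the receptor inhibitor in SW620, the direction in which PMEPA1 and TGFBI moved with TGFB1 in SW480. The cause of this direction was not tested. In SW620 PMEPA1 had 119 and 118 CPM in vector and 97.2 and 93.5 CPM in Tet2CD cells with RepSox, against 54.5 and 51.9 CPM in vector and 47.2 and 49.4 CPM in Tet2CD cells with DMSO, higher by 1.07 on the log2 scale. The difference of the effects, SW480 minus SW620, was -1.15 (SE 0.15, adjusted p 0.00121, edgeR). For TGFBI the SW620 values were 355 to 434 CPM with RepSox against 215 to 244 CPM with DMSO, and the difference was -0.88 (adjusted p 0.0145), a call lost in 11 of the 16 fits that left out 1 library. For TGM2 they were 90.5 to 104 CPM with RepSox against 34.3 to 46.4 CPM with DMSO, and the difference was -1.60 (adjusted p 0.00202). The calls of PMEPA1 and TGM2 held in all 23 alternatives run. With DMSO alone PMEPA1 averaged 102 ± 19.4 CPM in SW480 and 50.7 ± 3.15 CPM in SW620 (SD, n = 4 each). SMAD4 was also low in SW620, at 0.257 to 2.26 CPM with RepSox against 0.880 to 1.99 CPM with DMSO.

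Of the genes with the largest difference between lines, PADI1, a peptidylarginine deiminase, had 63.9 to 121 CPM with RepSox against 63.5 to 118 CPM with DMSO in SW480, where the treatments overlapped (log2 fold change 0.09, 95% interval -0.21 to 0.38), and 43.2 to 55.3 CPM with RepSox against 2.35 to 6.76 CPM with DMSO in SW620 (difference -3.46, adjusted p 4.52e-07, edgeR). RASD1, a Ras-related GTPase, stood at 0.584 to 3.03 CPM with RepSox against 0.587 to 2.35 CPM with DMSO in SW480 and 50.9 to 80.0 CPM with RepSox against 1.24 to 3.73 CPM with DMSO in SW620 (difference -4.50). RAB3B (-4.12), a secretory GTPase, the WNT inhibitor DKK1 (-3.13) and CCND2 (-2.98), cyclin D2, completed the 5 with the lowest difference. Leaving out 1 library lost the call in 1 of 16 fits for RASD1, in 3 for RAB3B, in 10 for DKK1 and in 12 for CCND2, and in none for PADI1. In SW480 RAB3B had 15.7 to 21.6 CPM with RepSox against 19.6 to 28.3 CPM with DMSO, DKK1 1.82 to 5.12 CPM with RepSox against 2.35 to 7.34 CPM with DMSO and CCND2 4.96 to 15.1 CPM with RepSox against 10.2 to 15 CPM with DMSO, with overlapping treatments in at least 1 construct.

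In the other direction, F10, coagulation factor X, had 22.1 to 99.3 CPM with RepSox against 15.3 to 55.3 CPM with DMSO in SW480 and 8.02 to 11.4 CPM with RepSox against 38.5 to 58.1 CPM with DMSO in SW620 (difference 2.79, adjusted p 0.00121, edgeR). SNPH, a neuronal protein that anchors mitochondria, stood at 21.8 to 32.7 CPM with RepSox against 17.7 to 31.4 CPM with DMSO in SW480 and 0 to 1.06 CPM with RepSox against 0.933 to 2.35 CPM with DMSO in SW620 (difference 3.51), and NYNRIN at 9.40 to 16.3 CPM with RepSox against 6.71 to 14.3 CPM with DMSO in SW480 and 0.772 to 1.06 CPM with RepSox against 4.99 to 6.81 CPM with DMSO in SW620 (difference 2.76). SNPH was at no more than 2.35 CPM in SW620 with either treatment, so its difference rests on low levels there. NUP153-AS1 (difference 3.90) stood at 2.42 to 5.25 CPM with RepSox against 1.18 to 4.72 CPM with DMSO in SW480. It lies antisense to NUP153 and cannot be told apart from its partner, since no source used here says that strand was counted. Leaving out 1 library lost the call in 13 of 16 fits for NUP153-AS1, in 14 for AC040160.1 and in 7 for SNPH, and in none for F10 and NYNRIN. AC040160.1 was the only one of these 10 at an unadjusted p below 0.001 in SW480, at 1.46 to 2.42 CPM with RepSox against 0 to 0.587 CPM with DMSO (difference 2.87), without overlap in either construct (adjusted p 1, edgeR). HID1, a Golgi-associated protein of dense core vesicle formation named above for SW480, was lower with RepSox in SW620, at 30.6 to 39.4 CPM with RepSox against 17.3 to 28.1 CPM with DMSO in SW480 and 13.0 to 19.5 CPM with RepSox against 42.2 to 49.5 CPM with DMSO in SW620 (difference 2.01, adjusted p 4.71e-05).

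**Figure D5:**
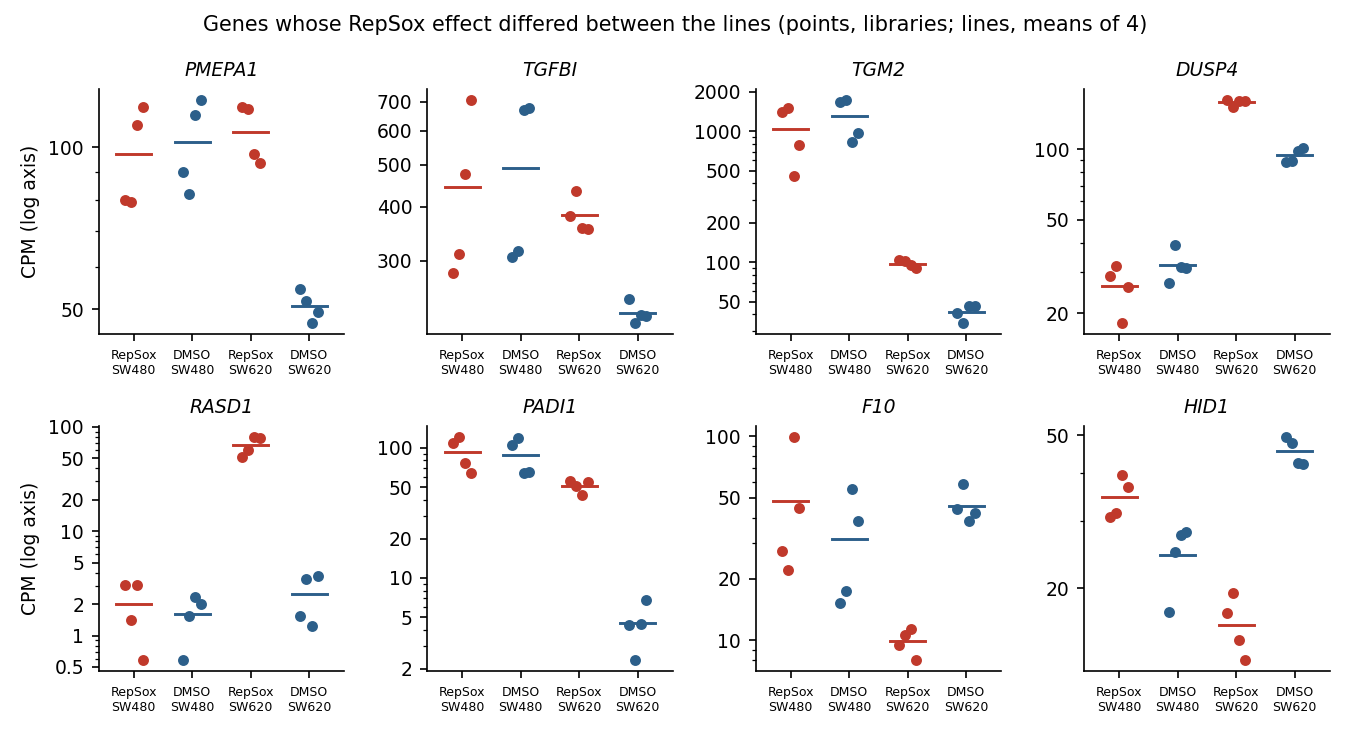
Level in CPM (log y axes) of 8 genes whose RepSox effect differed between the lines, RepSox in red and DMSO in blue, SW480 left and SW620 right (points, libraries of both constructs; lines, means of 4). In SW480 the red and blue points of PMEPA1, TGFBI, RASD1 and PADI1 share 1 range, and in SW620 they are apart, as for PMEPA1 with 93.5 to 119 CPM with RepSox and 47.2 to 54.5 CPM with DMSO.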

How the data were processed

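Per the labels and the study's methods, RNA was extracted with TRIzol, libraries were made with a TruSeq version 2 kit and sequenced on a NextSeq 500, reads were trimmed, and the authors estimated expected counts per gene with RSEM and Bowtie. The deposited tables list 33382 human Ensembl genes per library, of which 32777 matched GENCODE release 29. The submitters' processing notes name the build mm10, a mouse build, although the gene IDs are human. The study's text gives another ligand mixture and duration than the labels, and the labels were followed. The deposited TPM and FPKM values were not used for tests. The study names a GC normalization, which was run here as an alternative.

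The deposited expected counts, rounded to integers, were fitted with edgeR 4.0.16 in R 4.3.3 (quasi-likelihood, TMM, filterByExpr, a mean for each of 12 groups over 24 libraries, 12 residual degrees of freedom), leaving 15302 genes, with Benjamini-Hochberg adjustment over all of them and a threshold of 0.05. The comparison averaged the RepSox minus DMSO effect over constructs, which takes construct as a block. The common biological coefficient of variation was 21.3%. Totals of 2146123 to 4410567 expected counts per library limit the precision of low genes. Intervals are 95% intervals of the fit. CPM were computed from the scaled library sizes. DESeq2 1.42.0, other normalizations and filters, a GC offset, a block for library numbers and leaving out libraries were run as alternatives. The scripts were tested on simulated data. No replicate pair of the 12 groups agreed within sampling noise (chi-square per degree of freedom 1.63 to 42.9).

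The members and lists were chosen with earlier results of these data known. Named genes were the 5 with the largest positive and the 5 with the largest negative difference past the threshold, the 2 largest differences of each list where none passed, and a fixed set of pathway and EMT genes. Genes named for their small p or for lack of overlap were chosen after their values were seen. Promoters are from RefSeq, GRCh38.p14. The values of 1 list member are not reported here.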

Additional observations from a re-analysis of the deposited data

Results flagged for a closer look

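The RepSox effect differed between SW480 and SW620 by the direct test for 157 genes (edgeR, adjusted p below 0.05). Among the genes named in the text, the log2 effect in SW480 minus that in SW620 was 3.90 for NUP153-AS1, 3.51 for SNPH, 2.87 for AC040160.1, 2.79 for F10, 2.76 for NYNRIN and 2.01 for HID1. It was -4.50 for RASD1, -4.12 for RAB3B, -3.46 for PADI1, -3.13 for DKK1, -2.98 for CCND2, -1.60 for TGM2, -1.15 for PMEPA1, -1.06 for DUSP4 and -0.88 for TGFBI. PADI1, F10, NYNRIN, HID1, PMEPA1 and TGM2 passed in all 23 alternatives run. The call of DUSP4 was lost in 9 of the 16 fits that left out 1 library.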

How the results depend on the processing

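RepSox against DMSO in SW480 gave 0 calls in the average, the vector cells, the Tet2CD cells and the difference between constructs under relative log expression size factors, the stricter filter, the GC offset, the block for library numbers, the fit of SW480 libraries alone, and without the 3 SW480 Tet2CD replicate 1 libraries. Without the filter on low counts the calls were 38, 31, 68 and 29 in these 4 comparisons, and 262 for SW480 against SW620. In these 4 comparisons 38, 31, 66 and 28 of the genes called had also been tested in the main fit. DESeq2 gave 1 call in the average, 1 in vector cells (SYK in both) and 309 between the lines. Leaving out the 3 SW480 Tet2CD replicate 1 libraries gave 577 calls between the lines, 353 higher and 224 lower. The cause of these differences was not tested.

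Leaving out 1 library gave 0 to 11 calls in the average, 0 to 0 in vector cells, 0 to 1656 in Tet2CD cells, 0 to 6 for the difference between constructs (8 fits each, the upper value each time without SW480 Tet2CD RepSox replicate 2, except in vector cells) and 63 to 776 between the lines (16 fits). The group left with 1 library was assumed to vary like the others, and the SW620 libraries left out were chosen after seeing the data. The labels give no replicate numbers. With the replicate block for library numbers the counts were 0, 0, 0, 0 and 172 (119 higher, 53 lower).

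Of 1339 alternative values of 80 named genes in the average, 1256 kept their side of the threshold within 1 SE and 79 moved by more. In the alternative alone 4 were called, and 0 reversed. With 0 genes called in the main fit, and reversal counted only for called genes, these counts were largely fixed beforehand and do not measure stability. Signs changed in 38 values of 20 genes. Between the lines, 87 of 345 values of 15 genes lost the call and 0 reversed.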
